A study of Mus musculus with 12 samples.

Results

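The genes described here encode the extracellular matrix of the lung vessel wall, the integrins that bind cells to it, and the secreted or membrane-bound proteases that cut it. They were chosen by symbol, as the protein-coding genes named for collagens, laminins, nidogens, integrin chains, lysyl oxidases, fibrillins, fibulins, thrombospondins, Adamts proteases, matrix metalloproteinases and Timp inhibitors. The rule found 81 genes among the 9338 listed in any of the 4 deposited comparison tables, of which 6886 are protein-coding. Each table lists only genes whose unadjusted p in the authors' DESeq2 test was below 0.05, so that a gene absent from a table has no value for it and every count below is a count among genes already selected for a difference. The 81 genes comprise 14 basement membrane genes, 11 integrin chains of matrix receptors, 4 integrin chains of leukocytes and platelets, 6 fibrillar collagens, 9 other collagens, 7 elastic fibre genes, 14 metalloproteinases, 2 Timp inhibitors and 10 Adamts or Adamtsl genes. The remaining 4, Itgb1bp1, Itgb1bp2, Itgb3bp and Loxhd1, match by name only. No thrombospondin gene was listed.

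CD31+ cells were taken with antibody-coated magnetic beads from lungs digested with collagenase-dispase, and their poly(A) RNA was sequenced from 12 male mice on the C57Bl/6J background, 3 in each of 4 groups. All mice carried TET2 fl/fl alleles and all received tamoxifen at 40 mg/kg on each of 3 days when between 6 and 8 weeks old. The TET2 KO mice carried in addition Cdh5-CreERT2, a tamoxifen-activated recombinase under the promoter of the endothelial gene Cdh5, and the WT mice were their Cre-negative counterparts, so that the deletion is directed to endothelial cells and not to the other cells of the preparation. WT and TET2 KO mice were fed a chow diet with 13% of energy from fat or a high fat diet (HFD) with 60% for 20 weeks, and lungs were taken at 30 weeks of age. Library totals, recovered from the count, length and FPKM of each gene, ran from 36.7 M to 56.8 M reads, with a median of 39.6 M. Tet2 itself was listed only for WT HFD against WT chow, so its level does not check the genotype of the TET2 KO libraries. Of the 81 genes, 45 were listed in 1 table, 29 in 2, 6 in 3 and 1 (Adamts4) in 4, and only 13 had counts in all 12 libraries.

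In a vessel wall, endothelial cells lie on a basement membrane woven from collagen IV and laminins, which nidogens join together. Fibroblasts and smooth muscle cells lay down the fibrillar collagens and elastic fibres outside it. Integrins are pairs of an alpha and a beta chain that bind these proteins and signal into the cell. Metalloproteinases and Adamts enzymes cut matrix proteins, and Timps inhibit them. Counts below are normalised counts, given for replicates 1, 2 and 3 of a group in that order, and differ slightly between comparisons because each table has its own size factors. Levels of different genes are compared only in FPKM, read fragments scaled by gene length and library size. A gene is called higher or lower where the unadjusted p of edgeR's quasi-likelihood test is below 0.05. Each group held separate mice.

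Levels of endothelial marker RNA differed between groups. Among 11 endothelial marker genes (Pecam1, Cdh5, Kdr and others), 11 were called higher in WT HFD than in WT chow, and their summed level was 815 to 1404 FPKM in WT HFD against 304, 263 and 707 FPKM in the WT chow libraries 1 to 3. For TET2 KO HFD against WT HFD, 9 of the 11 were listed and 8 called lower, with sums of 399 to 732 against 781 to 1345 FPKM. Kdr and Erg were not listed there and are not in these sums. Every marker sum in this report, for any cell type, covers only listed markers, which were already selected for a difference. Such a sum is therefore no measure of the whole marker set. In bulk RNA, fewer cells of a type and less RNA per cell cannot be told apart. WT chow library 3, the one with the highest endothelial sum of its group, also had the highest count of that group for 36 of the 59 matrix genes listed (61.0%) and for 46.0% of all 7330 genes listed.

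The largest set of differences was between diets in WT mice. In CD31+ cells of WT HFD mice, basement membrane genes and most integrin chains of matrix receptors stood above WT chow, while metalloproteinases split evenly between higher and lower. Of 59 matrix genes listed, 39 were called higher and 15 lower, against 41.9% higher and 48.8% lower over all 7330 genes listed. Their median log2 fold change was 0.78, against -0.32 over all listed genes. Counts of the 2 groups did not overlap for 48 of the 59, against 86.5% over all listed genes. After Benjamini-Hochberg adjustment of the edgeR p over the 23768 genes the authors tested, 11 of the 59 were below 0.05, against 16.5% over all listed genes. DESeq2 on the same counts called 41 of the 59 after adjustment and limma 17. Over all 7330 genes listed they called 4546 and 1941. With the median of all listed genes set to 0 the calls were 43 higher and 8 lower, and no gene of the 59 changed sign. The 7 lower calls lost there were Adamts2, Col20a1, Itga2b, Itga5, Itgb3, Mmp23 and Mmp25. Of the 54 calls in either direction, 18 held in at most 3 of 6 leave-one-out fits. The count of genes called higher was 25 without WT chow library 2, 26 without WT HFD library 1 and 35 without WT chow library 3, and that of genes called lower was 10 without WT chow library 2.

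**Figure D1:**
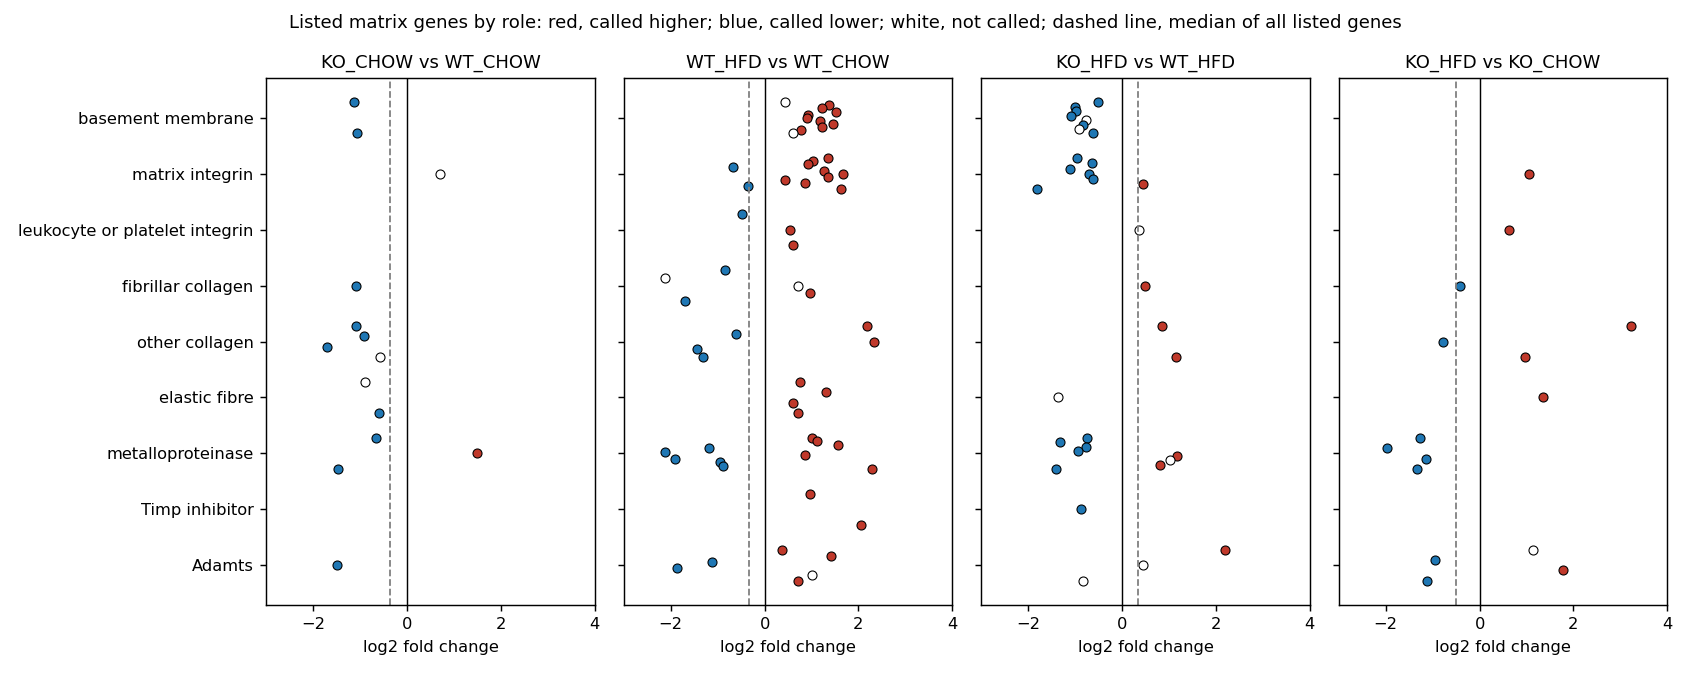
Log2 fold change of each listed matrix gene, grouped by role (rows), in the 4 comparisons (panels); red points were called higher, blue lower and white not called, and the dashed line is the median of all genes listed in that table. All 11 basement membrane points of WT HFD against WT chow lie above 0, and all 8 of TET2 KO HFD against WT HFD lie below it. The genes that match by name only are not drawn.

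Among basement membrane genes, 11 of 14 were listed for WT HFD against WT chow, 9 were called higher and none lower, with a median log2 fold change of 1.19. Col4a1 and Col4a2, the collagen IV chains of nearly every basement membrane, had the highest levels of this class. Col4a1 (ENSMUSG00000031502, chr8:11198423-11312826, minus strand, GRCm38) counted 19818, 14318 and 10444 in WT HFD and 3626, 3266 and 10308 in WT chow. WT chow library 3 thus lay just under the lowest WT HFD library, and the other WT chow libraries far below both. Its level was 47.5 ± 15.1 FPKM against 18.4 ± 12.6 FPKM (SD, n = 3), and the log2 fold change was 1.37 ± 0.48 (SE; adjusted p = 0.121). Without WT chow library 3 that log2 fold change was 2.11, and the call held in 2 of 6 leave-one-out fits. Col4a2 (ENSMUSG00000031503, chr8:11312805-11449287, plus strand) gave 12539.5, 9064 and 7249 in WT HFD and 2348, 2535 and 7553 in WT chow, with 1 WT chow library inside the WT HFD range. The 2 genes lie head to head, and their annotated first exons overlap. The 30 bases around both starts, from GRCm38.p6, are shown because they hold the 22 bases that both genes transcribe from opposite strands, in capitals.
Col4a1 and Col4a2 starts, chr8:11312801-11312830, plus strand: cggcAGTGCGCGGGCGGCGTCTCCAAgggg

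Lamb2, the laminin beta chain of vessel and muscle basement membranes, counted 5013, 4283 and 2909.8 in WT HFD and 1142, 1038 and 2238 in WT chow, so the groups stood apart. Its log2 fold change was 1.47 (SE 0.34, adjusted p = 0.0559), and all 6 leave-one-out fits called it. Col4a4, a collagen IV chain best known from the glomerular and alveolar basement membrane, counted 539.6, 427 and 299 against 91.3, 123 and 227, a log2 fold change of 1.52. Every WT HFD count of Lamb2 and Col4a4 exceeded every WT chow count. Lama5, the alpha chain of the laminins of mature endothelium, counted 10374, 7364 and 5442 against 2299, 2511 and 5385, and its call held in 3 of 6 leave-one-out fits. Nid1, a laminin to collagen IV linker, was called higher with overlapping counts (3340.1, 2568 and 1949.5 against 1412, 1096 and 2076). Lama4 (0.91) and Col4a5 (0.92) were called higher on the log2 scale with groups apart, while Nid2 (0.61, adjusted p = 0.2) and Col18a1 (0.44, adjusted p = 0.191), the source of endostatin, were not called.

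The ratio of each gene's FPKM to the endothelial sum gave other values. Col4a1 FPKM was 4.11, 4.30 and 4.92% of the summed FPKM of the 9 endothelial markers listed in both comparisons in the WT chow libraries, and 4.71, 4.34 and 4.27% in the WT HFD libraries. As a ratio to the sum of all 11 markers, the 2 diets did not overlap for 3 of 11 basement membrane genes (Lama5, Nid1 and Col18a1), against 58.9% over all 7330 genes listed, and these ratios were lower in WT HFD. The log2 ratio of the group means, WT HFD over WT chow, was 0.01 for Lamb2, 0.03 for Col4a1, 0.05 for Col4a4 and -0.12 for Col4a2. It was -0.26 for Lama5, -0.59 for Col4a5, -0.69 for Lama4, -0.74 for Nid1, -1.02 for Nid2 and -1.09 for Col18a1, so that the latter genes stood lower on this scale and higher in normalised counts. The median over the 11 genes was -0.26. WT chow library 3 was the highest library of its group for 10 of the 11 basement membrane genes. The part of the endothelial share in these results was not tested.

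**Figure D2:**
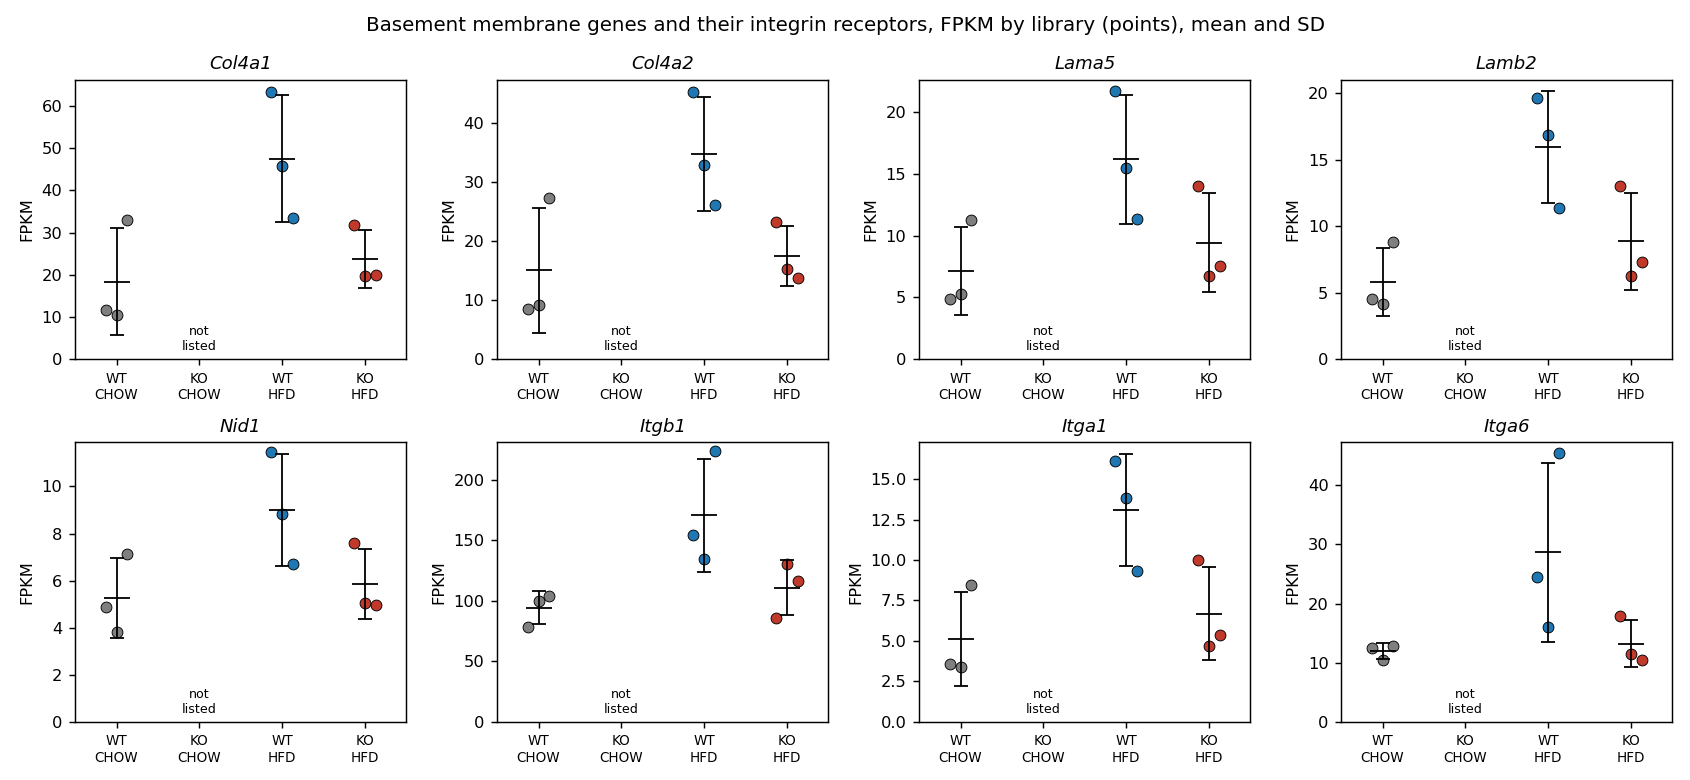
FPKM of 5 basement membrane genes and 3 integrin chains (panels) in each library (points), with the group mean and SD (bars, n = 3) by genotype and diet; "not listed" marks groups with no deposited value. WT HFD has the highest group mean in all 8 panels, and 1 WT chow library lies well above the others for Col4a1 and Col4a2.

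All 11 integrin chains of matrix receptors were listed, 9 of them called higher and 2 lower, with a median log2 fold change of 1.02. Itgb1, the common beta chain of the collagen, laminin and fibronectin receptors and the most abundant at 171 ± 46.7 FPKM, counted 26340.4, 22998 and 38278 in WT HFD and 13366, 16914 and 17803 in WT chow. The groups were apart, and the log2 fold change was 0.87 ± 0.22 (SE; adjusted p = 0.0634). Itga1, which with Itgb1 binds collagen IV, gave 12576, 10756 and 7268 against 2749.9, 2603 and 6607. Itga6, the laminin receptor chain, counted 9269.5, 6032 and 17224 against 4723, 3898 and 4878, its highest value in the WT HFD library that was lowest for Col4a1. Itga9, whose receptor binds tenascin and other ligands, counted 1396, 1004 and 1764 against 389, 393 and 844. All 4 chains were called higher in each leave-one-out fit. Itga2, a collagen receptor chain, counted 2736, 1993 and 2006 against 1027, 949.9 and 1337, and Itgb6, the epithelial partner of Itgav that activates TGF-beta, 74.6, 66.6 and 60.0 against 18.1, 18.1 and 29.0. Their log2 fold changes were 1.02 (adjusted p = 0.0398) and 1.62 (adjusted p = 0.0393), the only adjusted calls among integrins by edgeR. Itga8, a mesenchymal chain, was higher by 1.67, Itga3 by 0.92 and Itgav by 0.44.

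The 2 chains called lower were Itga5, the fibronectin receptor chain, and Itgb3, the partner of Itgav and of the platelet chain Itga2b. Itga5 counted 3625, 3182 and 4139.9 in WT HFD and 4894, 7188 and 5291 in WT chow, and fell by 0.67 on the log2 scale. Itgb3 counted 2262, 2302 and 2536 against 3514, 2593 and 2965, and fell by 0.35. As with Itga5, every WT HFD count lay below every WT chow count, although for Itgb3 the lowest WT chow count stood close to the highest WT HFD count. The Itgb3 call held in 2 of 6 leave-one-out fits, with a log2 fold change of -0.23 without WT chow library 1. Neither chain was called with the median of all listed genes set to 0, at -0.34 for Itga5 and -0.03 for Itgb3. As a ratio to the endothelial sum the diets did not overlap for 3 of the 11 chains (Itga3, Itga5 and Itgb3), against the 58.9% over all listed genes, with a median log2 ratio of -0.50 over the 11. Among the leukocyte and platelet chains, Itgal (0.55) and Itgb7 (0.60) were called higher and Itga2b lower (-0.47), and Itgal at 149 ± 28.7 FPKM in WT HFD approached Itgb1. Itgal and Itgb7 are leukocyte chains. T and NK cell markers were listed for 5 of 11, all called higher, with sums of 58.6 to 76.0 against 28.3 to 45.3 FPKM. Monocyte and macrophage markers were mixed, 2 called higher and 3 lower, and the neutrophil marker Retnlg was called lower. Of 7 platelet markers 3 were listed, with 1 called lower. The part of these cells in the integrin values was not tested.

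Of 14 metalloproteinases 10 were listed in this comparison, 5 called higher and 5 lower, and 5 passed adjustment. Over all 7330 genes listed 41.9% were called higher and 48.8% lower, and 16.5% passed adjustment. Mmp28 (chr11:83440768-83463071, minus strand), a secreted enzyme also called epilysin, counted 1343, 808 and 673 in WT HFD and 167, 138 and 269 in WT chow. Mmp15 (chr8:95352268-95375080) and Mmp14 (chr14:54431612-54445364), membrane-anchored enzymes of the MT-MMP class, counted 3576, 3330.0 and 3028 against 858, 902 and 1589.6, and 675, 568 and 604 against 236, 275 and 336. All 3 genes were higher in every WT HFD library, by 2.30 (SE 0.35, adjusted p = 0.038), 1.57 (SE 0.25, adjusted p = 0.0393) and 1.12 (SE 0.18, adjusted p = 0.0393) on the log2 scale. Mmp11 and Mmp2, the latter a gelatinase that MMP14 activates, were called higher by 1.01 and 0.85.

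In the other direction, Mmp19 (chr10:128790910-128800824), a secreted enzyme also found in macrophages, counted 1027, 1437 and 1939.9 in WT HFD and 4693, 8742 and 5595 in WT chow. It fell by 2.11 on the log2 scale (SE 0.31; adjusted p = 0.038), from 43.0 ± 14.6 to 9.91 ± 3.08 FPKM, the highest level of any metalloproteinase listed. Mmp17, a GPI-anchored enzyme, counted 76.8, 111 and 77.1 against 189, 159.6 and 255, with groups apart. Mmp25, the GPI-anchored enzyme of neutrophils, overlapped between groups (337, 317 and 546 against 853, 841 and 507). Mmp21 fell by 1.90 (edgeR adjusted p = 0.0491) with at most 28.3 counts in a library, and Mmp23 fell by 0.96. As a ratio to the endothelial sum the diets did not overlap for 6 of the 10 metalloproteinases, against the 58.9% over all listed genes, Mmp28 upward and Mmp17, Mmp19, Mmp21, Mmp23 and Mmp25 downward. Of 10 monocyte and macrophage markers 5 were listed, 3 called lower (Chil3, Marco, Mrc1) and 2 higher (Ccr2, Csf1r), with summed levels of 942 to 1682 FPKM in WT HFD against 1648 to 3047. The neutrophil marker Retnlg, the only 1 of 6 listed, was lower, at 53.3 to 229 against 269 to 489 FPKM. The part of these cells in the metalloproteinase values was not tested. Of the exon bases of Mmp19, 28.3% lie opposite another annotated gene, and of Mmp28 12.03%, and the strand setting of the counting is not stated.

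**Figure D3:**
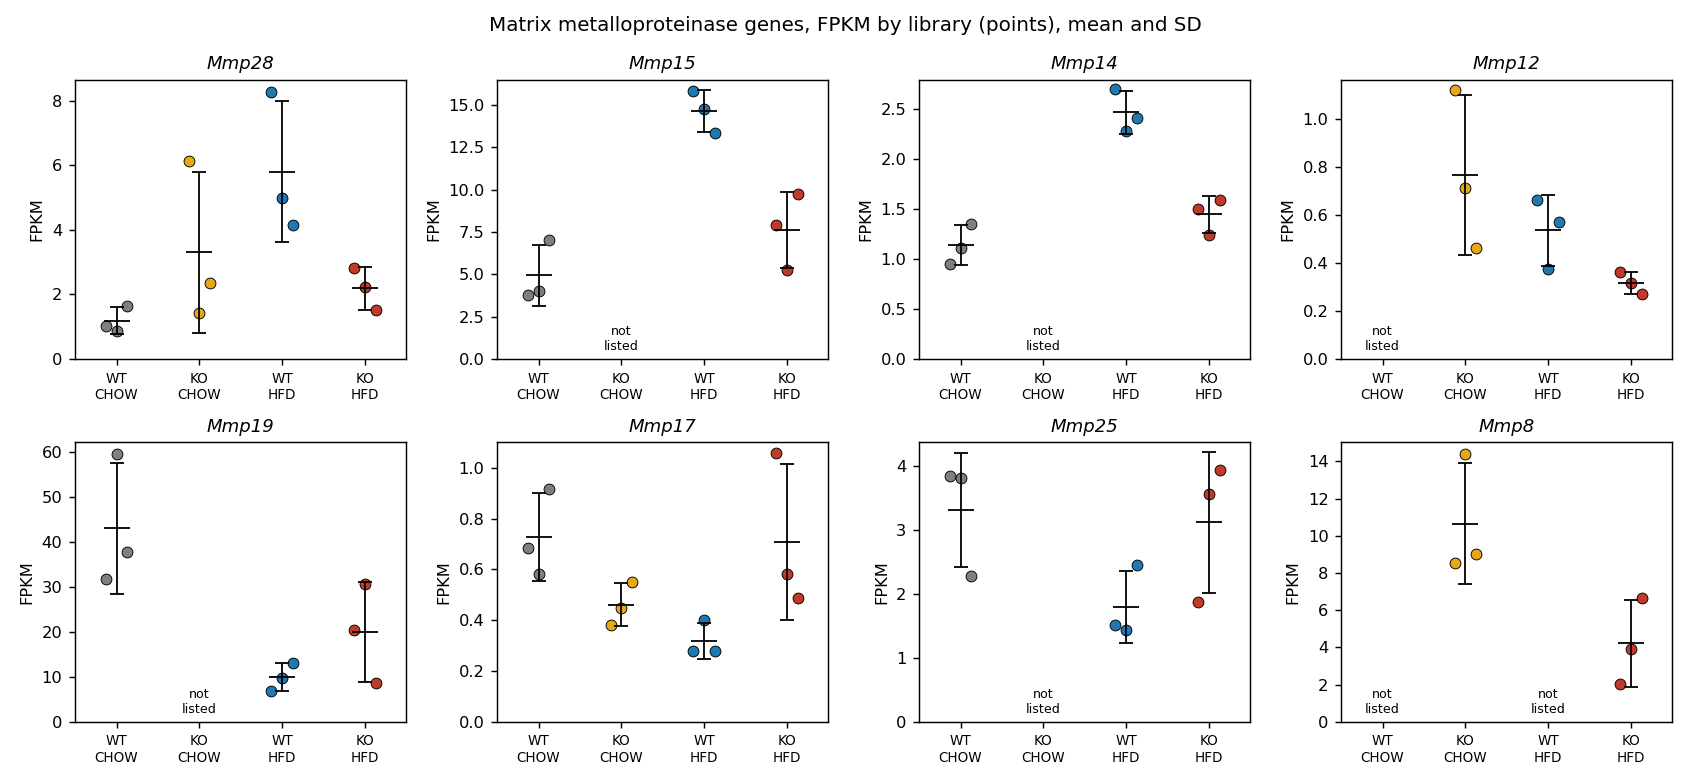
FPKM of 8 metalloproteinases (panels) in each library (points), with group mean and SD (bars, n = 3); "not listed" marks groups with no deposited value. Mmp28, Mmp15 and Mmp14 have their highest means in WT HFD, Mmp19 has its highest in WT chow, and Mmp12 and Mmp8 are higher in TET2 KO chow than in TET2 KO HFD.

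Both Timp genes were called higher. Timp2, an inhibitor that also takes part in the activation of MMP2, counted 10119, 7171 and 13029 in WT HFD and 4472, 5090.3 and 6024 in WT chow and rose by 0.96 ± 0.23 (SE) on the log2 scale. Timp4 had at most 10.7 counts in any library. Of 6 Adamts genes listed, 3 were higher and 2 lower. Adamts4, an aggrecan- and versican-cutting enzyme, counted 20.7, 29.6 and 10.7 against 67.6, 78.1 and 78.5 (log2 fold change -1.87, adjusted p = 0.0442). Adamts2, which removes the N-propeptide of fibrillar collagens, was lower (278, 147 and 398 against 465, 755 and 562) and Adamts14, of the same class, higher (930.1, 553 and 1201 against 514, 264 and 226). Adamts10 (0.37) and Adamtsl5 (0.71) were called higher and Adamtsl3 (1.01, adjusted p = 0.187) was not called.

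The elastic fibre genes listed, Fbn1, Loxl3, Fbln2 and Fbln5, were all 4 called higher, Fbln5 most (869.5, 805 and 429 against 222, 207 and 416, a log2 fold change of 1.32) and Fbln2 with groups well apart (514, 509.7 and 380.1 against 271, 285 and 278). Among fibrillar collagens, Col5a2 was higher (0.98) and Col11a2, a chain of cartilage collagen XI, lower in every library (653, 643 and 551 against 1009, 1069.9 and 1248, log2 fold change -0.85, adjusted p = 0.0393). Col5a3 was lower with at most 24.7 counts, and Col2a1 (-2.11, adjusted p = 0.235) and Col5a1 (0.72, adjusted p = 0.195) were not called. Col7a1, the anchoring fibril collagen, counted 131, 149 and 192 against 329, 493 and 463 and fell by 1.45 (adjusted p = 0.0393). Col9a3 fell by 1.32 (adjusted p = 0.0438) and Col20a1 by 0.61, while Col13a1 and Col26a1, with at most 41.3 counts, were called higher. Of 10 fibroblast markers 6 were listed and 3 called higher, with sums of 10.4 to 26.7 against 7.45 to 9.09 FPKM. Lung epithelial markers were mixed, with 8 of 15 listed, 4 higher and 2 lower.

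TET2 KO HFD was next compared with WT HFD, which sets the 2 genotypes side by side under the high fat diet. Basement membrane genes, integrin chains and the metalloproteinases Mmp14, Mmp15 and Mmp28 were lower in TET2 KO HFD, and Mmp17 and Col9a3 were higher. Of 33 matrix genes listed, 7 were called higher and 19 lower, against 41.9% higher and 38.5% lower over all 3939 genes listed. The median log2 fold change was -0.77, against 0.33 over all listed genes, and the groups did not overlap for 20 of the 33, against 74.7%. None passed adjustment by edgeR, where the lowest adjusted p was 0.272, and none by limma, while DESeq2 called 8 (Mmp14, Mmp28, Itgb6, Mmp15, Col9a3, Col4a4, Itgb3 and Col4a2). Over all 3939 genes listed DESeq2 called 570 after adjustment, and edgeR and limma called none. With the median of all listed genes set to 0 the calls were 2 higher (Mmp17 and Col9a3) and 23 lower, with no change of sign. Of the 26 calls in either direction, 13 held in at most 3 of 6 leave-one-out fits. Without TET2 KO HFD library 2 the count of genes called lower was 10. This comparison and the one above share the 3 WT HFD libraries, so opposite signs in the 2 are not independent and are given only side by side.

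Of 8 basement membrane genes listed, 6 were called lower and none higher. Col4a1 counted 9982, 6123 and 6160.0 in TET2 KO HFD and 19668, 14313 and 10382 in WT HFD, so that every TET2 KO count lay below every WT count. It fell by 0.99 on the log2 scale (SE 0.29; adjusted p = 0.272), to 23.7 ± 6.91 from 47.5 ± 15.1 FPKM. Its head-to-head neighbour Col4a2 fell by 0.99 too (6473, 4208 and 3784 against 12444, 9061 and 7206), and Col4a4 by 1.08 (221, 152 and 222 against 535, 427 and 297). Each of these 3 calls held in all 6 leave-one-out fits. Lamb2 (-0.84), Nid1 (-0.62) and Col15a1 (-0.51), a collagen of the basement membrane zone, were called lower, the first 2 with overlapping counts. Lama5 (-0.77, adjusted p = 0.35) was not called.

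Among 7 integrin chains of matrix receptors, 6 were called lower and 1 higher. Itgb6 counted 24.1, 8.50 and 24.0 against 74.0, 66.6 and 59.6, or -1.81 ± 0.42 (SE) on the log2 scale. Itga2 counted 1599, 1196 and 1513 against 2715, 1993 and 1995 and fell by 0.64. Both were apart between genotypes and called in every leave-one-out fit. Itgb1 (14716, 22264 and 19758 against 26140.4, 22990.1 and 38054) was called lower with its groups barely apart. Itga6 (-1.11), Itga1 (-0.96) and Itga9 (-0.70) were called lower with overlapping counts. Itgb3, by contrast, rose in each library (3434, 3264 and 2989 against 2245, 2301 and 2521), by 0.45 on the log2 scale (SE 0.14). Its log2 fold change was 0.12, and not called, with the median of all listed genes set to 0. The leukocyte chain Itgae, which pairs with Itgb7, was not called (0.37, adjusted p = 0.337).

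Mmp14 counted 377, 309 and 395 in TET2 KO HFD and 670.3, 568 and 600.3 in WT HFD, with the smallest p of the 33 genes (log2 fold change -0.77, SE 0.16, adjusted p = 0.272). Mmp15 counted 1798, 1183 and 2189 against 3549, 3329 and 3009.9, and Mmp28 462, 359 and 242 against 1332, 808 and 669. They fell by 0.94 and 1.40, and no TET2 KO HFD library reached the lowest WT HFD library of these 3 genes. Mmp12, the macrophage elastase, counted 111, 95.6 and 81.9 against 199, 113 and 172, and Mmp13, a collagenase, at most 33.0. Both were called lower, by 0.75 and 1.31 on the log2 scale, and the calls held in 2 and 3 of 6 leave-one-out fits. Mmp17 (296, 160.4 and 134 against 76.2, 111 and 76.6) was called higher by 1.16 and Mmp25 by 0.80. Mmp19 was not called (3051, 4535 and 1267 against 1019.7, 1437 and 1929, adjusted p = 0.343), its lowest TET2 KO HFD library lying inside the WT range.

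Timp2 fell by 0.87 with overlapping counts (7226, 4785 and 4452 against 10042, 7168 and 12953). Adamts4 was called higher on widely spread counts (195, 64.8 and 17.5 against 20.5, 29.6 and 10.6) and held in 2 of 6 leave-one-out fits, with a log2 fold change of 2.19 that was 1.02 without TET2 KO HFD library 1. Adamts6 (0.44, adjusted p = 0.336), Adamtsl2 (-0.83, adjusted p = 0.382) and Loxl2 (-1.37, adjusted p = 0.405), a lysyl oxidase whose highest count of 609.9 came from 1 WT HFD library, were not called. Col11a2 counted 939.7, 820.1 and 814 against 648, 643 and 548, Col9a3 203, 210.3 and 120.1 against 92.3, 80.3 and 67.1, and Col7a1 385, 272 and 195 against 130.4, 149 and 191. These 3 collagens of cartilage and epithelial anchorage rose by 0.49, 1.15 and 0.86, with groups apart. With the median of all listed genes set to 0, Adamts4, Col11a2 and Col7a1 kept their sign but were no longer called.

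The same genes were also taken as shares of the summed FPKM of the 9 endothelial markers. Col4a1 was 4.33, 4.92 and 4.35% of the marker sum in TET2 KO HFD, within the range of 4.27 to 4.71% in WT HFD except for library 2. Itga1 was 1.36, 1.18 and 1.17% against 1.20, 1.31 and 1.19%, and 1.25, 1.37 and 1.26% in WT chow. Itgb3 was 1.89, 3.32 and 2.67% against 0.680, 0.882 and 1.31%, with no overlap. The ratios did not overlap between genotypes for 2 of 8 basement membrane genes (Lama5 and Nid1, both higher in TET2 KO HFD), 2 of 7 integrin chains (Itgb3 higher, Itgb6 lower) and 2 of 8 metalloproteinases (Mmp17 and Mmp19, both higher), against 53.5% over all 3939 genes listed. The median log2 ratio of the group means, TET2 KO HFD over WT HFD, was 0.10 for the basement membrane genes, 0.30 for the integrin chains and 0.26 for the metalloproteinases. Lung epithelial markers were listed for 2 of 15 (Ager and Hopx), both called lower, at 28.8 to 48.0 against 70.3 to 85.3 FPKM. Ccr2, the only monocyte and macrophage marker listed, was called lower, and the platelet marker Gp1ba and smooth muscle marker Cnn1 were called higher. The single T and NK cell and mesothelial markers listed were not called, and no fibroblast or neutrophil marker was listed. The part of the endothelial share and of these other cells in the fold changes was not tested.

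**Figure D4:**
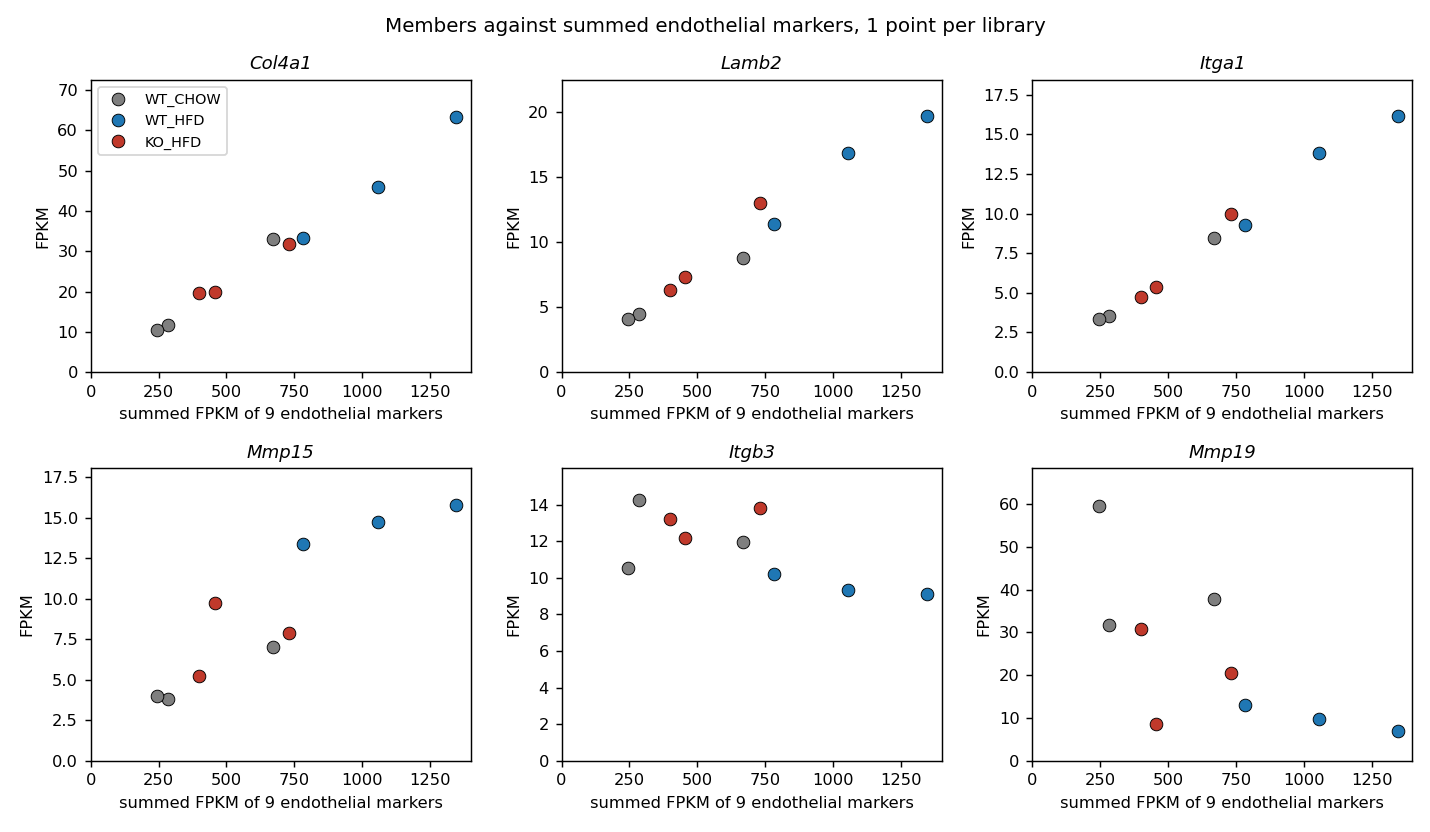
FPKM of 6 matrix genes (panels, y axes) against the summed FPKM of 9 endothelial markers (x axes) in the 9 libraries of WT chow (grey), WT HFD (blue) and TET2 KO HFD (red). Points for Col4a1, Lamb2 and Itga1 lie near a line through the origin in all 3 groups, whereas Itgb3 and Mmp19 have their lowest WT values in the WT HFD libraries with the highest sums.

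On chow, TET2 KO was compared with WT in the same way. Matrix genes were mostly lower in TET2 KO chow, led by interstitial collagens and 2 proteases, and Mmp28 was the only one called higher. Of 16 listed, 1 was called higher and 11 lower, against 29.7% higher and 45.0% lower over all 1298 genes listed. Their median log2 fold change was -0.90, against -0.37 over all listed genes, and 10 of the 16 had no overlap between groups, against 74.7%. No adjusted p was below 1 by edgeR, limma called none after adjustment, and DESeq2 called 1 (Adamts4). Over all 1298 genes listed DESeq2 called 12 after adjustment. With the median of all listed genes set to 0 the calls were 2 higher (Mmp28 and Itga9) and 4 lower (Adamts4, Col1a2, Col14a1 and Mmp3), with no change of sign. Of the 12 calls, 6 held in at most 3 of 6 leave-one-out fits. The count of genes called lower was 7 without TET2 KO chow library 2, TET2 KO chow library 3 or WT chow library 2. The count called higher was 0 without TET2 KO chow library 1, WT chow library 1 or WT chow library 2, and 2 without TET2 KO chow library 3 or WT chow library 3.

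Col1a2, the second chain of collagen I (chr6:4504814-4541544), counted 228, 243 and 277 in TET2 KO chow and 581, 636 and 370.2 in WT chow. Col14a1, a collagen that binds the surface of collagen I fibrils, counted 115, 139 and 109 against 272, 322 and 177. Both fell by 1.09 on the log2 scale, were apart between genotypes and were called in every leave-one-out fit. Col17a1, a hemidesmosome collagen of epithelia, fell by 0.91 (30.4, 21.2 and 23.4 against 40.1, 49.0 and 52.3). Col4a6 (-1.13) and Lama2 (-1.06), chains of smooth muscle and muscle basement membranes, were called lower with at most 89.3 counts. Col6a5 was lower with at most 39.2 counts and overlap, Loxl2 had a log2 fold change of -0.59 that was -0.22 and not called with the median of all listed genes set to 0 and was called in 1 of 6 leave-one-out fits, and Fbln1 (-0.89) and Col7a1 (-0.57) were not called.

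The protease with the smallest p was Adamts4, at 28.5, 23.1 and 25.5 against 66.2, 75.2 and 74.9 (log2 fold change -1.48, SE 0.24). Mmp3, stromelysin, counted 21.8, 14.4 and 24.4 against 61.5, 59.9 and 46.1, and fell by 1.46. Each TET2 KO chow library was below each WT chow library for both. Mmp17 fell by 0.66, and its call held in 2 of 6 leave-one-out fits. Mmp28 was higher by 1.48, with counts of 962, 219 and 366 against 164, 133 and 256, where the lowest TET2 KO count lay inside the WT range. The single integrin chain listed, Itga9, was not called (1002, 897 and 661 against 381, 378 and 805). Itgb1bp2, a muscle protein named for binding an integrin, fell by 0.75, and Loxhd1, a stereocilia gene, had 19.2 counts in 1 TET2 KO chow library and at most 0.949 in the other 5 libraries. Of 10 fibroblast markers 2 were listed, both called lower (sums of 1.68 to 2.44 against 2.36 to 5.65 FPKM), and of 7 mesothelial markers 5 were listed and called lower (0.782 to 1.52 against 1.59 to 9.01 FPKM). Of 15 lung epithelial markers 5 were listed and 4 called lower, and of 11 T and NK cell markers 6 were listed and 5 called higher. The part of these cells in the matrix values was not tested. Of the endothelial markers only Ramp2 was listed, and it was not called.

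The 2 diets were then compared in TET2 KO mice. No basement membrane gene and no Timp was listed, and the metalloproteinases listed were all 4 called lower in TET2 KO HFD. Of 17 matrix genes listed, 6 were called higher and 9 lower, against 29.2% higher and 47.2% lower over all 1628 genes listed. The median log2 fold change was -0.60, against -0.51 over all listed genes, and 12 of the 17 had no overlap, against 72.6%. None passed adjustment by edgeR (lowest adjusted p = 0.848) or limma, and DESeq2 called 1 (Col20a1). Over all 1628 genes listed DESeq2 called 70 after adjustment, and edgeR and limma 1 each. With the median of all listed genes set to 0 the calls were 7 higher and 0 lower, and Col11a2 changed sign. Of the 15 calls, 7 held in at most 3 of 6 leave-one-out fits. The count of genes called higher was 3 without TET2 KO chow library 2 or 3, and that of genes called lower 6 without TET2 KO chow library 2 and 5 without TET2 KO HFD library 2 or 3.

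Mmp8, the neutrophil collagenase, counted 199, 382 and 652 in TET2 KO HFD and 833, 1401 and 874 in TET2 KO chow, and Mmp12 105, 91.9 and 79.2 against 326, 207 and 134. They fell by 1.33 (SE 0.42) and 1.27 (SE 0.34) on the log2 scale, with groups apart and the call kept in each leave-one-out fit. Mmp13 (13.4, 4.08 and 11.6 against 78.3, 25.2 and 11.1) and Mmp23 were called lower with overlapping counts. None of these 4 calls held with the median of all listed genes set to 0. Of 10 monocyte and macrophage markers 5 were listed and 4 called lower (2743 to 4918 against 5492 to 8238 FPKM), and no neutrophil marker was listed. The part of these cells in the metalloproteinase values was not tested.

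Mmp13, Mmp12, Mmp3 and Mmp8 are neighbours within 296.0 kb of chromosome 9 (7272514 to 7568485, GRCm38), all on the plus strand. Mmp3 was lower in TET2 KO chow than in WT chow, Mmp12 and Mmp13 were lower in TET2 KO HFD than in WT HFD, and Mmp8, Mmp12 and Mmp13 were lower in TET2 KO HFD than in TET2 KO chow. Against WT HFD the Mmp12 and Mmp13 calls held in 2 and 3 of 6 leave-one-out fits. Against TET2 KO chow the Mmp13 call held in 2 of 6. The last 2 comparisons share the TET2 KO HFD libraries. Their upstream sequences are shown as a set of neighbouring genes that were called lower in these comparisons: for each, 250 bases that end just before the RefSeq start (GRCm38.p6), with capitals marking matches to TGANTCA, known as the AP-1 element. Capitals also mark TATAAA, the TATA box, and the search covered both strands. In the GENCODE annotation the last 16 bases of the Mmp12 window lie in an Mmp12 exon.
Mmp13, chr9:7272264-7272513, plus strand: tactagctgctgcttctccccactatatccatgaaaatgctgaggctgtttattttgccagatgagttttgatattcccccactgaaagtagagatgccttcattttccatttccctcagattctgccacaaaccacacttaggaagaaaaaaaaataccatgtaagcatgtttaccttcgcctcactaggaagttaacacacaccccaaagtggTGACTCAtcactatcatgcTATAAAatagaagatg
Mmp12, chr9:7344147-7344396, plus strand: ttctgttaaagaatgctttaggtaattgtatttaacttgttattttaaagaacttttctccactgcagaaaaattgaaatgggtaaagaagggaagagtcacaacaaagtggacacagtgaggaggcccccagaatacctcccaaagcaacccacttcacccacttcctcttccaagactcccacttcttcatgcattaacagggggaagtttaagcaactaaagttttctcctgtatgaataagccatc
Mmp3, chr9:7445572-7445821, plus strand: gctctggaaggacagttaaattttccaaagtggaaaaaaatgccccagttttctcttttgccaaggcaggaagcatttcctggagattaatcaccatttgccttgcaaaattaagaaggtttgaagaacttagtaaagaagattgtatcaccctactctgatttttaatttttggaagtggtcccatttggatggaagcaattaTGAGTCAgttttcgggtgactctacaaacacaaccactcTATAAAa
Mmp8, chr9:7558179-7558428, plus strand: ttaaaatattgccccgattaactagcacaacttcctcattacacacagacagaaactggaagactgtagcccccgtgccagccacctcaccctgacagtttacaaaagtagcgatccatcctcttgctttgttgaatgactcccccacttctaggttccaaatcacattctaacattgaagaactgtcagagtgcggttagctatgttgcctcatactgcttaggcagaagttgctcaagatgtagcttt
TGACTCA began 35 bases before the start in Mmp13 and TGAGTCA 46 bases before it in Mmp3, and TATAAA began 16 and 7 bases before it, without overlap. Neither motif was found in the windows of Mmp12 and Mmp8. Of all 32851 such windows, 6.75% held TGANTCA and 12.4% TATAAA. Of the 58 matrix genes with a window, 2 (Mmp3 and Mmp13) held TGANTCA and 8 held TATAAA. The GC box, GGGCGG, was found in 29 of the 58 windows against 32.7% of all windows, and CCAAT in 11 (19.0%) against 33.8%. These are matches of letters and no evidence of binding.

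Called higher in TET2 KO HFD over TET2 KO chow were Itga8, Loxl1, Col6a3, Col13a1, Itgae and Adamts4. Itga8 counted 91.9, 90.8 and 155 against 58.5, 49.4 and 54.6 (log2 fold change 1.05), and Loxl1, a lysyl oxidase of elastic fibres, 49.8, 48.0 and 143 against 42.5, 20.3 and 31.4. Col6a3, a microfibrillar collagen chain, rose by 0.97, and Col13a1, a transmembrane collagen, counted 19.1, 12.2 and 34.9 against 3.77, 2.91 and 0. Groups were apart for all 4. The leukocyte chain Itgae counted 782, 831 and 831 against 538, 460.2 and 585, and rose by 0.63. Adamts4 was called higher on overlapping counts of 186, 62.3 and 16.9 against 28.3, 23.3 and 25.3. That call held in 2 of 6 leave-one-out fits, and its log2 fold change of 1.78 was 0.63 without TET2 KO HFD library 1. Adamts1, an aggrecan-cutting enzyme at 72.3 ± 50.3 FPKM, was not called (27693, 9954 and 8506 against 9053, 8796 and 3188, adjusted p = 0.984). Fibroblast markers were listed for 5 of 10 and 4 were called higher (9.27 to 18.5 against 2.79 to 4.45 FPKM). Mesothelial markers were listed for 6 of 7, with 5 called higher. Their sum, which includes Krt19 (-0.85, not called), was 44.8 to 90.1 against 61.2 to 133 FPKM, with overlap. The part of these cells in the collagen and integrin values was not tested.

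Adamtsl4, an Adamts-like protein that binds fibrillin, was lower in TET2 KO HFD (687, 797 and 748 against 2226, 1631 and 975, log2 fold change -1.11), as was Adamts2 (183, 235 and 286 against 530.3, 508 and 316, -0.94). Both had groups apart. Col20a1 counted 189, 226 and 198 against 341, 381 and 327 and fell by 0.78. Col11a2 counted 894, 788 and 788 against 1089.9, 1112 and 1081, a log2 fold change of -0.41 that was 0.10 with the median of all listed genes set to 0.

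The genotype by diet interaction asks whether the change from chow to HFD differed between TET2 KO and WT. It could be fitted for 975 genes with counts in all 12 libraries, 13 of them matrix genes, all already listed for pairwise differences. Of the 13, 6 were called, against 56.4% of the 975. All 6 kept an adjusted p below 0.05 over the 975 genes and were called in each of 12 leave-one-out fits. That adjustment runs over genes selected in the same libraries, so it gives no error rate over all genes. For Mmp28, counts on the scale common to all libraries were 167, 136 and 264 in WT chow, 1321, 798 and 663 in WT HFD, 984, 226 and 374 in TET2 KO chow and 454, 355 and 240.3 in TET2 KO HFD. WT libraries rose with HFD without overlap, while the TET2 KO libraries of the 2 diets overlapped. Its interaction was -2.89 on the log2 scale (SE 0.71; adjusted p = 0.0147).

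Itga9 had the same order of groups, with 387, 387 and 828 in WT chow, 1373, 991 and 1737 in WT HFD, 1025, 924 and 676 in TET2 KO chow and 757, 702 and 1069 in TET2 KO HFD (interaction -1.41, SE 0.47). Mmp17, Adamts4 and Col7a1 had positive interactions. For Mmp17, counts were 188, 157 and 250.01 in WT chow, 75.5, 109.6 and 75.9 in WT HFD, 105, 122 and 149.9 in TET2 KO chow and 291, 158 and 133 in TET2 KO HFD (1.82, SE 0.46). Adamts4 fell in WT with HFD from 67.2, 76.99 and 77.01 to 20.3, 29.2 and 10.5, while TET2 KO counts were 29.1, 23.8 and 26.0 on chow and 192, 64.0 and 17.3 on HFD (3.66, SE 0.93). The 3 TET2 KO HFD libraries of Adamts4 thus ran from within the WT HFD range to above every other library. Col7a1 counted 327, 485 and 455, then 129, 147 and 189 in WT, and 250.4, 368 and 238, then 379, 269 and 194 in TET2 KO (1.42, SE 0.41). Itgb3bp, which encodes a centromere protein named for its binding to an integrin tail, had an interaction of -1.29. No interaction was called for Col11a2 (0.44, adjusted p = 0.131) and the other 6 genes (adjusted p of 0.497 to 0.891). As a ratio to the endothelial sum, Mmp28 was apart between WT diets (log2 ratio 0.78) and overlapped between genotypes on HFD (-0.35). Itga9 overlapped in both (0.03 and 0.30), while Mmp17 was apart in both (-2.68 and 2.08). The ratio was not taken for the other genes called. The part of the endothelial share in the interactions was not tested.

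**Figure D5:**
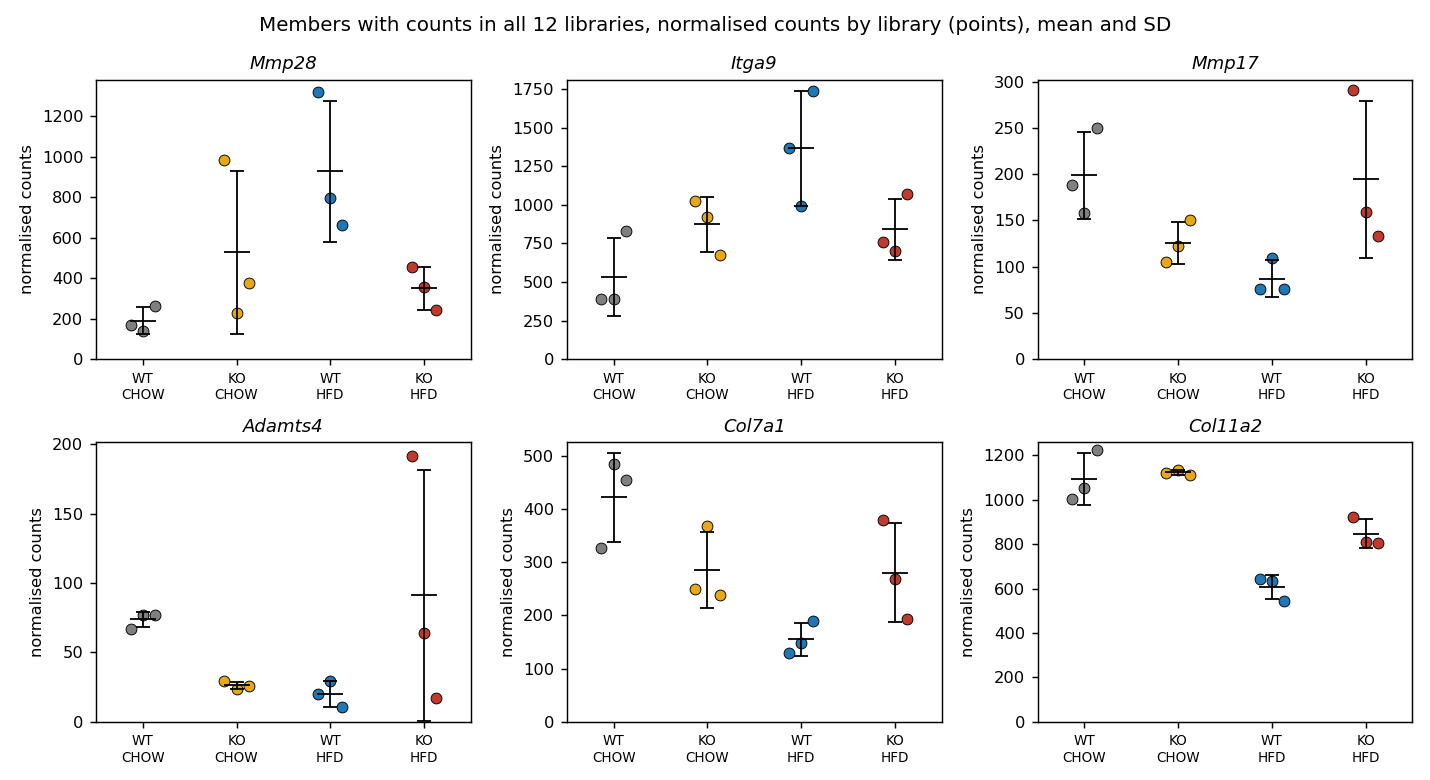
Normalised counts of 6 matrix genes with values in all 12 libraries (points), with group mean and SD (bars, n = 3) by genotype and diet. Mmp28 and Itga9 have their highest mean in WT HFD, Mmp17, Adamts4 and Col7a1 their lowest there, and the 3 TET2 KO HFD points of Adamts4 are spread from 17.3 to 192.

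Other genes of matrix assembly and adhesion, from a list of 76 that are not among the 81, were counted in the same way. The list was chosen with earlier results of these data known. In WT HFD against WT chow 34 were listed, 25 called higher and 4 lower, with a median log2 fold change of 0.98. Over all genes listed there, 41.9% were called higher and 48.8% lower, with a median of -0.32. Sparc (1.93) and Sparcl1 (2.15), matricellular proteins, Serpinh1 (1.54), the collagen chaperone, Eln (1.63), elastin, and Agrn (1.26), a basement membrane proteoglycan, were higher, and Ctsk (-1.67), a collagen-degrading cathepsin, lower. In TET2 KO HFD against WT HFD 20 were listed, 2 called higher and 17 lower, with a median of -0.88. All genes listed there gave 41.9% higher, 38.5% lower and a median of 0.33. Sparc (-1.20), Sparcl1 (-1.09), Serpinh1 (-1.05) and Agrn (-0.75) were among the 17 called lower. These values share the WT HFD libraries with the diet comparison. In TET2 KO chow against WT chow 9 were listed, 3 higher and 5 lower (median -0.54), among them the small proteoglycans Dcn (-1.20) and Fmod (-1.90). The shares over all listed genes were 29.7% higher and 45.0% lower (median -0.37). In TET2 KO HFD against TET2 KO chow 16 were listed, 7 higher and 5 lower (median 0.75). All genes listed for that comparison gave 29.2% higher and 47.2% lower, with a median of -0.51. There Mfap4 (3.25) and Fmod (2.22) were higher, and Vcan (-2.25), a substrate of ADAMTS4, and Fn1 (-1.22), fibronectin, lower. Mfap4 and Dcn are also on the fibroblast marker list.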

How the data were processed

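CD31+ lung cells of 12 mice were profiled by poly(A) RNA-seq. Per the paper and the labels, the authors aligned reads to mm10 with HISAT2, counted them with featureCounts and tested pairs of groups with DESeq2, with versions, annotation release and strand setting not given in the sources used here. The deposited tables hold raw counts, normalised counts (a signal in units of counts divided by size factors) and FPKM per library, and the authors' fold changes and p-values, which were not used except that the p-value column fixes which genes are listed (p below 0.05) and shows how many genes were adjusted over. Raw counts were fitted with edgeR 4.0.16 (quasi-likelihood, robust) in R 4.3.3, with library sizes from the deposited size factors, two-sided, calls at unadjusted p below 0.05. Benjamini-Hochberg adjustment ran over the 18463, 23768, 18703 and 19511 genes adjusted by the authors, in the order TET2 KO chow against WT chow, WT HFD against WT chow, TET2 KO HFD against WT HFD, and TET2 KO HFD against TET2 KO chow. Listed genes left out of that adjustment (213, 161, 349 and 145) got no adjusted p. Alternatives were DESeq2 1.42.0, limma 3.58.1 on log2 counts (pseudocount 1), library totals, the median log2 fold change set to 0, a mean count of at least 10, a replicate block, leaving out each library, and, chosen after seeing the data, edgeR without the robust fit. The fit was tested on simulated counts.

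Named genes were, per comparison, role and direction, the 3 called genes with the largest changes (a mean of at least 50 and no overlap), every gene in 3 or 4 tables, every gene listed for TET2 KO chow against WT chow, every Timp, and the 3 of highest FPKM per role; others were named after their values were seen. The members, the 76-gene pathway list and the cell type markers were chosen with earlier results of these data known. Markers of B cells were in no table, and those of smooth muscle cells and pericytes were listed for 0, 4, 1 and 1 of 9. A few matching gene names are not reported here. Coordinates of 80 of 81 genes match the GENCODE M21 annotation of GRCm38; 12 share over 5% of exon bases with a gene on the opposite strand, and without strand their reads cannot be told apart. All fits used listed genes only, so the spread that edgeR, DESeq2 and limma share between genes comes from genes selected for a difference. P-values rest on the spread between 3 mice a group and on that selection.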

Additional observations from a re-analysis of the deposited data

Results flagged for a closer look

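The genotype by diet interaction was called for 6 matrix genes, by the interaction term of edgeR over 12 libraries with 3 a group. The log2 differences (TET2 KO change minus WT change) were -2.89 for Mmp28, 1.82 for Mmp17, 3.66 for Adamts4, 1.42 for Col7a1, -1.29 for Itgb3bp and -1.41 for Itga9, with adjusted p of 0.0147, 0.016, 0.016, 0.0181, 0.0185 and 0.0246 over 975 genes. Of those 975 genes, which were all listed for pairwise differences, 56.4% were called, against 6 of 13 matrix genes. The same libraries selected these genes, so the adjusted p do not give an error rate over all genes. The value of Adamts4 ranged from 2.50 to 4.15 over the 12 leave-one-out fits, and that of Mmp28 from -3.25 to -2.07. Of the exon bases of Mmp28 12.03% and of Itgb3bp 8.59% lie opposite another annotated gene. The part of the endothelial share in these interactions was not tested.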

How the results depend on the processing

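Scaling by library totals and the fit without the robust option left every count of called members within 1.5 times its value. With the median log2 fold change of all listed genes set to 0, a shift of 0.37 upward for TET2 KO chow against WT chow, 0.32 upward for WT HFD against WT chow, 0.33 downward for TET2 KO HFD against WT HFD and 0.51 upward for TET2 KO HFD against TET2 KO chow, calls were 2 higher and 4 lower in the first, 8 lower in the second, 2 higher in the third and 0 lower in the fourth, and Col11a2 in the fourth turned to 0.10. By DESeq2, limma and the replicate block, 2 members were higher in TET2 KO chow. Leaving out 1 library gave 0 to 2 higher and 7 to 9 lower members for TET2 KO chow against WT chow, 25 to 36 and 10 to 15 for WT HFD against WT chow, 5 to 7 and 10 to 16 for TET2 KO HFD against WT HFD, 3 to 7 and 5 to 7 for TET2 KO HFD against TET2 KO chow, and 6 interactions throughout. Such fits use fewer samples; the cause of other changes was not tested. Of 77 results for named genes, DESeq2 kept the direction and call of 74 and added 3 calls, and the median set to 0 kept 52, lost 23, added 1 and turned 1. Replicate numbers are shared by the groups, but correlations of same-numbered libraries ran from -0.14 to 0.21, not all above 0.1, so the numbers were not taken to pair the mice. With the replicate block 69 of the 77 were kept, 6 lost and 2 added. Genes under about 50 counts rest on few reads, where depth limits precision.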
